A study of Mus musculus with 6 samples.

Results

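The 10 genes studied were grouped as smooth-muscle contractile genes and were followed in mouse embryonic fibroblasts (MEFs) as the cells were passaged. They were Acta2, Actg2, Tagln, Cnn1, Myl9, Myh11, Tpm1, Tpm2, Cald1 and Fhl3. They were picked by gene symbol, and all 10 were found among the 21988 symbols of the deposited table. All 10 also passed the filter on low values, 1 TPM (transcript abundance scaled to a fixed library total) or more in 2 or more libraries, as did 13332 genes in all. The cells came from C57BL/6 mice at 13.5 days of pregnancy and grew in medium with fetal bovine serum. They were harvested after 2, 8 or 14 population doublings (groups PD2, PD8 and PD14), and the labels name no other treatment or allele. Each group had 1 library depleted of ribosomal RNA (replicate 1) and 1 library enriched for poly(A) RNA (replicate 2). Whether the 2 libraries of a group had separate cultures as their source is not in the labels, and p-values cover only the spread between these samples.

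A fibroblast becomes a myofibroblast when it builds contractile stress fibres with proteins that smooth muscle also uses. Alpha smooth-muscle actin, the product of Acta2, is the usual marker of that state, and cultured fibroblasts on stiff plastic commonly carry it. Many of these genes are driven by serum response factor (SRF), which binds an A/T-rich promoter element, the CArG box, and recruits cofactors of the myocardin family. Assembly of actin into filaments releases the cofactors MRTF-A and MRTF-B to enter the nucleus, so that the genes respond to tension and to TGF-beta.

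The promoter of Acta2 and that of Myl9 are shown because they were the only ones among the members' windows that held a CArG-like element. RefSeq windows from 250 bases before to 50 bases after the start (build GRCm38.p6, 300 bases) matched 7 of the 10 members by symbol. Actg2, Tagln and Myh11 had no window and were not searched. The CArG box is its own reverse complement as a pattern, so 1 search covers both strands. The strict form was found in 1 of the 7 genes, Myl9, and in 1.81% of the 27025 genes with a window. A relaxed form, in which 1 of the 6 core bases may be G or C, was searched after the strict result was known. It was found in Acta2 and Myl9 and in 11.3% of all genes. It overlaps the strict form by construction. The TATAAA hexamer, searched on the sense strand only, was in 1 member (Cald1, 186 bases upstream of a start) and in 9.77% of all genes. Only exact hexamers at any position were counted, so similar A/T-rich stretches, as in the Acta2 window below, were not. Capitals mark the strict or relaxed CArG matches, and both sequences read 5′ to 3′ in the direction of the gene.
Acta2 (minus strand, chr19:34255324-34255623): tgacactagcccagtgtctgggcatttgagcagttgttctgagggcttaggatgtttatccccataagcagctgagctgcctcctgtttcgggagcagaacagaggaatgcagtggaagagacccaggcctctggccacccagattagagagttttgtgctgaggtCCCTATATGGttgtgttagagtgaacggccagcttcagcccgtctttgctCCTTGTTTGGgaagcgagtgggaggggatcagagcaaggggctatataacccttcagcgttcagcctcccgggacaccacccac
Myl9 (plus strand, chr2:156775214-156775513): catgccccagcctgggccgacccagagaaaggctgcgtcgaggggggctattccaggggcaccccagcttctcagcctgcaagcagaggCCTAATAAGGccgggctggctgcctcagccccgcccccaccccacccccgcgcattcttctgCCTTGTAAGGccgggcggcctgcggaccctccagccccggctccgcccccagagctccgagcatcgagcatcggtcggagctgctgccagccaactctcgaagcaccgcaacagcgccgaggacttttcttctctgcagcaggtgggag
In Acta2 the matches began 84 and 34 bases upstream of the start, and each had 1 G or C in its core. In Myl9 the strict match began 161 bases upstream and a relaxed one 99 bases upstream. These matches describe letters in the window and are not shown here to be bound.

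Depth is unknown because TPM carry no read numbers, and between 12554 and 12827 genes reached 1 TPM in a library. The TPM of the rRNA-depleted libraries summed to between 937217 and 950531 and those of the poly(A) libraries to 1000000. Replicate number and library method are the same thing in this design. All 12 fibroblast markers checked, among them Col1a1, Pdgfra and Thy1, were at 1 TPM or more in every library. In bulk RNA, fewer cells with a contractile programme and less contractile RNA per cell cannot be told apart.

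Together the 10 genes were a visible part of the transcriptome. Their TPM summed to 6048, 6556 and 3504 by order of passage with rRNA depletion, and to 14772, 9341 and 7542 with poly(A) selection. These sums were 0.645%, 0.690% and 0.374% of the deposited TPM in the first method and 1.48%, 0.934% and 0.754% in the second. The sum was therefore lowest at PD14 in both methods, but the drop lay after PD8 with rRNA depletion and mostly before PD8 with poly(A) selection. Acta2, Tagln and Tpm1 made up 58.1% to 78.9% of the summed TPM in the 6 libraries.

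The comparison of PD14 with PD2 asks how the contractile genes stood at the end of the passage series. Of the 10, 3 fell (Actg2, Fhl3 and Tpm1; limma, adjusted p under 0.05) and 0 rose. Of all genes tested, 4.77% fell, 6.41% rose and 11.2% changed in either direction. All 10 fitted changes were negative, with a median of -0.62 on the log2(TPM + 1) scale, against 45.1% negative and a median of 0.06 over all genes tested. At an unadjusted p under 0.05 the count was 5 of the 10, against 32% of all genes, the other two being Acta2 and Tagln. In 4 of the 10 (Actg2, Myh11, Tpm1 and Fhl3) both PD14 libraries lay below both PD2 libraries, which held for 15.8% of all genes. That rule compares libraries across methods and so depends on the offset between them. Myh11, with a fitted change of -0.16, met it, and Acta2, at -1.25, did not. The 3 calls rested on each PD8 and each PD14 library: without any one of these 4 libraries 0 members passed, while without the PD2 rRNA-depleted library 4 passed and without the PD2 poly(A) library 2. Over all genes the same 4 omissions left 0 (PD14 rRNA-depleted), 5 (PD14 poly(A)), 25 (PD8 rRNA-depleted) and 20 calls (PD8 poly(A)) of 1490, so the calls named below in gene lists share this limit. Under quantile normalization, which moves the split of all calls from 854 higher and 636 lower to 736 and 834, 2 members passed (Actg2 and Fhl3).

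**Figure D1:**
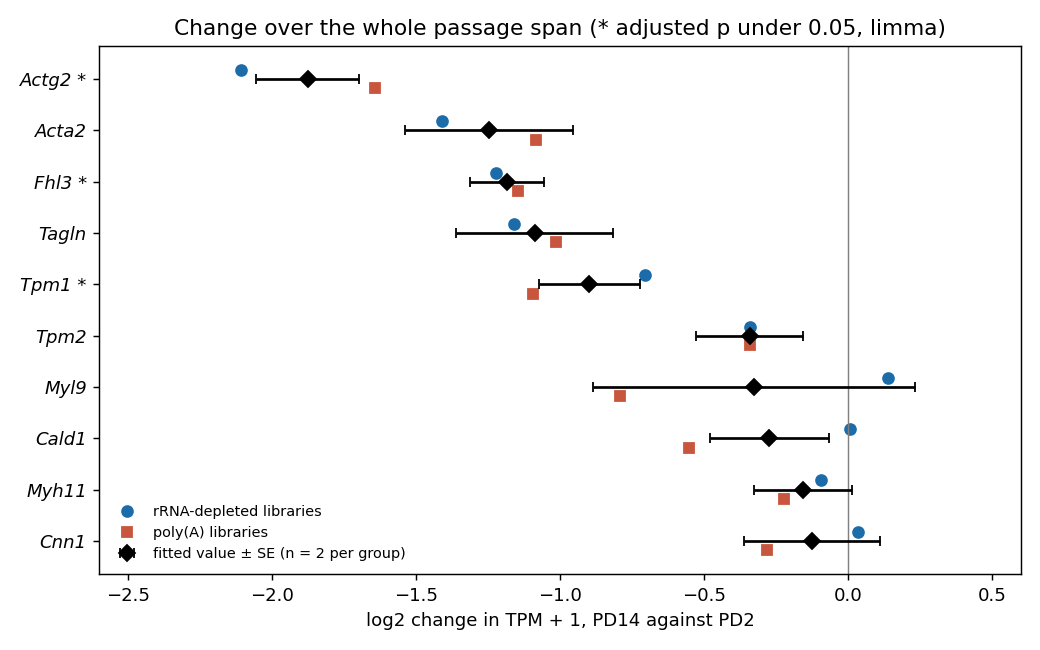
Log2 change of TPM + 1 from PD2 to PD14 (x axis) for each gene (y axis, sorted by the fitted value). Black diamonds are fitted values with their SE (n = 2 libraries per group), blue circles the rRNA-depleted and red squares the poly(A) libraries alone. The 5 genes with the largest fitted falls have both methods between -0.70 and -2.11, while Myl9, Cald1 and Cnn1 have 1 method at or just above 0.

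Of the smooth-muscle actins, Acta2 had the highest mean TPM of the 10 genes and Actg2 the largest fitted change from PD2 to PD14. Acta2 encodes alpha smooth-muscle actin, the thin-filament actin of vascular smooth muscle (chromosome 19, 34241090 to 34255590, minus strand, mm10, 10 exon blocks). At PD2, PD8 and PD14, in that order here and below, its TPM were 2120, 2028 and 798 with rRNA depletion and 6119, 3490 and 2885 with poly(A) selection. In each method every value was lower than the one before it, though by little from PD2 to PD8 with rRNA depletion. The PD14 poly(A) value lay above the PD2 rRNA-depleted value, so the groups overlapped. The fitted change was -1.25 ± 0.29 (SE, n = 2 libraries per group; adjusted p = 0.0562, limma), which missed the threshold. Over the alternative settings the adjusted p ranged from 0.0491, with each library rescaled without mitochondrial genes, to 0.661. Mitochondrial genes took 5.57% to 6.82% of TPM in the rRNA-depleted and 3.04% to 6.74% with poly(A) selection. Rescaled without them, the Acta2 change was -1.28 ± 0.27, against -1.25 ± 0.29. Any part of theirs beyond this scaling was not tested. At PD2 Acta2 ranked 7 among all genes by TPM in the poly(A) library and 37 in the rRNA-depleted one. By PD14 it ranked 21 and 155.

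Actg2 encodes gamma smooth-muscle actin, the form of visceral smooth muscle (chromosome 6, 83512905 to 83536265, minus strand). Its TPM were 140, 70.9 and 31.6 with rRNA depletion and 405, 186 and 129 with poly(A) selection. Each value was lower than the one before it in both methods, and all PD14 values were below all PD2 values. Actg2 fell by 1.88 ± 0.18 (adjusted p = 0.0166), the largest change among the 10, to 0.226 and 0.318 of the PD2 TPM in the respective methods. By size of fitted fall it stood at position 69 of the 13332 genes. Acta2 shared 0.33% of its 50-base transcript windows with other genes (Actg1 and pseudogenes) and Actg2 shared 0. Only identical windows were counted, so reads aligned with mismatches are not covered, and splitting of reads between the actins was not tested.

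Tagln and Cnn1 encode the calponin-family proteins that bind actin filaments, transgelin (SM22-alpha) and calponin 1. Tagln (chromosome 9, 45929619 to 45936058, minus strand) had 866, 941 and 387 TPM with rRNA depletion and 3170, 1921 and 1570 with poly(A) selection. PD14 was lowest within each method, and the groups overlapped because the poly(A) values were 2.04 to 4.06 times the rRNA-depleted ones. The fitted change was -1.09 ± 0.27 (adjusted p = 0.0643), which did not pass. Of the annotated exon bases of Tagln, 1241 (62.4%) lie opposite Gm48529, an antisense gene, and 108 opposite Pcsk7. Only the rRNA-depleted libraries are labelled strand-specific, so the Tagln values are uncertain.

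Cnn1 (chromosome 9, 22099216 to 22109630, plus strand) followed another course. Its TPM were 33.9, 87.9 and 34.8 with rRNA depletion and 76.4, 103 and 62.6 with poly(A) selection. PD8 was the highest of the 3 in both methods, and it was the only member whose PD8 values both lay above both PD2 values, as did 19.5% of all genes. From PD2 to PD14 its fitted change was -0.12 ± 0.24 (adjusted p = 0.749). It was 0.18 without the PD2 poly(A) library and -0.43 without the PD2 rRNA-depleted library, so the sign rested on 1 library.

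Tropomyosins lie along the actin filament and gate its contact with myosin. Tpm1, alpha-tropomyosin (chromosome 9, 67022590 to 67049406, minus strand), had 1387, 1168 and 851 TPM with rRNA depletion and 2367, 1513 and 1110 with poly(A) selection. Each value was lower than the one before it in both methods, and the PD14 and PD2 groups did not overlap. Tpm1 fell by 0.90 ± 0.17 (adjusted p = 0.0400), although the call was lost without the filter on low values (adjusted p = 0.0892), without the mean-variance trend (0.0556) and under quantile normalization (0.0520; limma in each case). Tpm2, beta-tropomyosin (chromosome 4, 43514711 to 43523765, minus strand), had 372, 556 and 294 TPM and 619, 622 and 488 TPM in the respective methods. Its groups overlapped, and its fitted change was -0.34 ± 0.19 (adjusted p = 0.268). Without the PD2 or the PD14 library of a method the Tpm2 value ranged from -0.48 to -0.20. Both genes make smooth-muscle and other isoforms by splicing, which values per gene do not separate.

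Myosin genes and caldesmon did not pass from PD2 to PD14. Myl9, the regulatory light chain of smooth-muscle myosin (chromosome 2, 156775420 to 156781658, plus strand), had 132, 536 and 146 TPM with rRNA depletion and 569, 411 and 328 with poly(A) selection. The PD8 rRNA-depleted library stood at 4.05 times the PD2 library of its method, while the poly(A) library of PD8 stood at 0.722 times. The fitted change from PD2 to PD14 was -0.33 ± 0.56 (adjusted p = 0.720), and its SE was the largest of the 10. Without the PD2 rRNA-depleted library the value was -1.18, and without the PD2 poly(A) library it was 0.53, so its sign rested on 1 library.
Myh11, the smooth-muscle myosin heavy chain and the most restricted marker of mature smooth muscle (chromosome 16, 14194535 to 14291372, minus strand), lay between 16.1 and 22.3 TPM in all 6 libraries. Its fitted change was -0.16 ± 0.17 (adjusted p = 0.567). Cald1, caldesmon, an actin- and myosin-binding inhibitor of the motor (chromosome 6, 34598500 to 34775473, plus strand), lay between 912 and 1339 TPM. Its fitted change was -0.27 ± 0.21 (adjusted p = 0.409). Without the PD2 poly(A) library Cald1 was at 0.03 and Myh11 at -0.05, and without the PD2 rRNA-depleted library they were at -0.58 and -0.27. Myh11 shared 0.34% of its 50-base windows with other genes, mainly the non-muscle myosin gene Myh9.

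Fhl3, a LIM-domain protein that binds actin filaments and transcription factors (chromosome 4, 124700701 to 124708611, plus strand), had 65.0, 47.3 and 27.3 TPM with rRNA depletion and 88.7, 60.0 and 39.6 with poly(A) selection. Each value was lower than the one before it, and PD2 and PD14 did not overlap. Fhl3 fell by 1.18 ± 0.13 (adjusted p = 0.0185), and the changes in the methods, -1.22 and -1.14, were close to each other. It shared 4.63% of its windows with the predicted gene Gm13898.

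**Figure D2:**
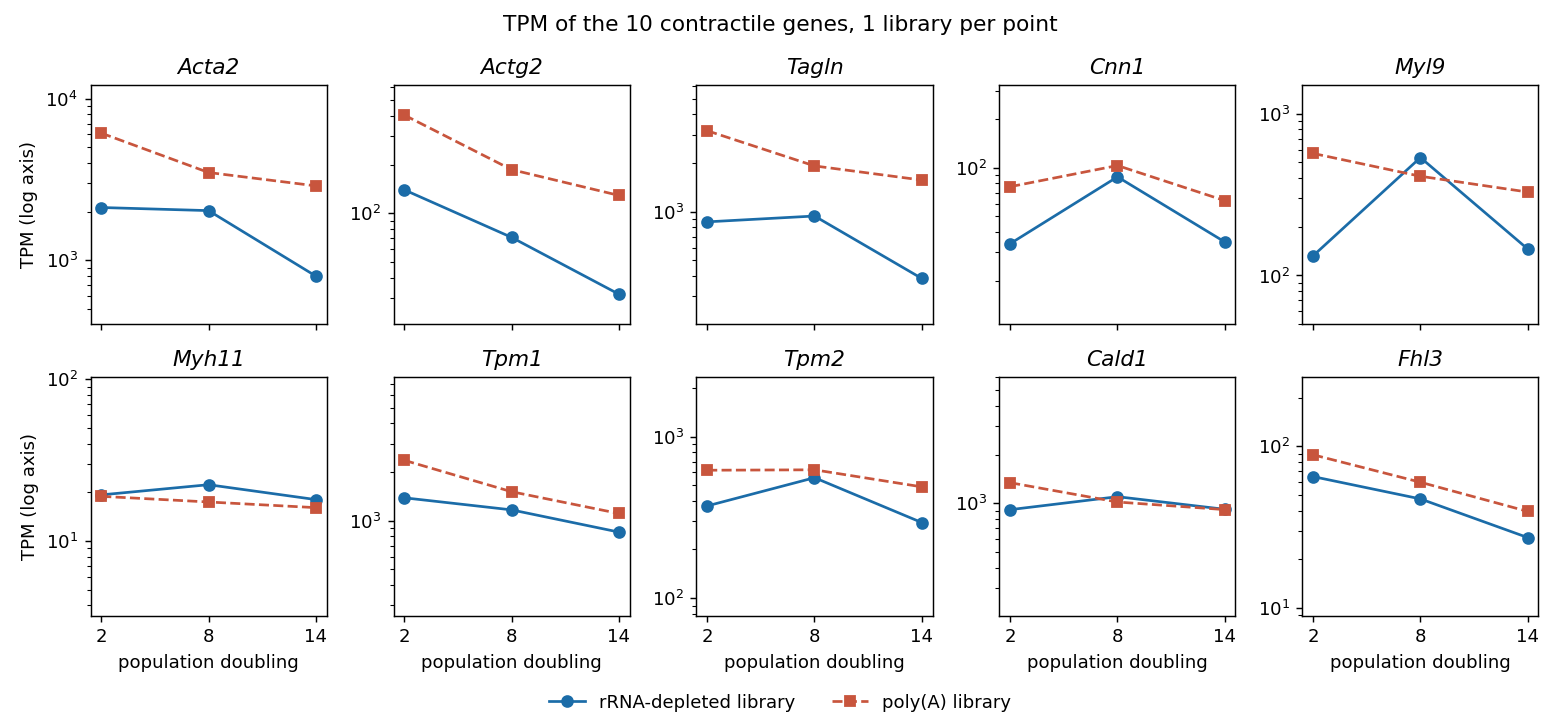
TPM (y axis, log scale, the same fold range in each panel) of the 10 genes against population doubling (x axis); each point is 1 library, blue circles rRNA-depleted and red squares poly(A). Acta2, Actg2, Tpm1 and Fhl3 step down at both intervals in both methods, Acta2 only from 2120 to 2028 TPM at first with rRNA depletion. Cnn1 peaks at PD8 in both methods, and Myh11 stays between 16.1 and 22.3 TPM.

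The steps PD2 to PD8 and PD8 to PD14 ask when the changes took place. No member passed in the early step in limma, where 0.0225% of all genes did. That background of 3 genes was 626 without the PD2 rRNA-depleted library, 278 without the PD2 poly(A) library and 0 without any other library, with 0 members in each case. At an unadjusted p under 0.05 there were 4 of 10 (Actg2, Tpm1, Fhl3 and Cnn1), against 20.3% of all genes. Of the 4, Actg2 was at -1.04 ± 0.18, Fhl3 at -0.50 ± 0.13 and Tpm1 at -0.45 ± 0.17, while Cnn1 was at 0.89 ± 0.24. Tpm1 was at -0.25 without the PD2 poly(A) library, and Cnn1 was at 0.58 without the PD2 and 0.51 without the PD8 rRNA-depleted library. Fhl3 alone had both PD8 libraries below both PD2 libraries, as 13.7% of all genes did.

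In the late step 0 members and 0% of all genes passed in limma. All 10 fitted changes were negative, with a median of -0.73 against 0.01 over all genes, and 7 of 10 had an unadjusted p under 0.05, against 5.6% of all genes. Both PD14 libraries lay below both PD8 libraries for 6 of the 10 (Cnn1, Myl9, Tpm1, Tpm2, Cald1 and Fhl3), against 7.07% of all genes. The changes were negative in each method for every member. The largest fitted values were those of Myl9 (-1.10 ± 0.56), Cnn1 (-1.01 ± 0.24), Actg2 (-0.83 ± 0.18) and Acta2 (-0.81 ± 0.29), with adjusted p between 0.866 and 0.899. These sizes rested on single libraries: without the PD8 rRNA-depleted library Myl9 was at -0.09, Cnn1 at -0.63 and Acta2 at -0.36, and without the PD8 poly(A) library they were at -2.10, -1.39 and -1.26. Without the PD14 rRNA-depleted library Acta2 was at -0.46 and Tagln at -0.50.

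A test of the late step minus the early step found 0 members and 0% of all genes in limma. At an unadjusted p under 0.05 there were 2 of 10, against 4.25% of all genes. These were Cnn1 (-1.90 ± 0.41, unadjusted p = 0.00494) and Tpm2 (-0.93 ± 0.32, unadjusted p = 0.0330), and the adjusted p of each was 0.9996 (limma). Without the PD8 rRNA-depleted library Cnn1 was at -1.14 and Tpm2 at -0.36, and without the PD8 poly(A) library they were at -2.66 and -1.50. The comparisons share groups, so their values are given side by side and not as separate evidence.

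The methods placed the decline differently. In the rRNA-depleted libraries the median change of the 10 was 0.16 in the early step and -1.03 in the late step, against -0.0039 and 0.05 over all genes tested. In the poly(A) libraries it was -0.51 and -0.34, against 0.07 and -0.03. Acta2 was at -0.06 and then -1.34 in the first method and at -0.81 and then -0.27 in the second. Tagln had the same order, at 0.12 and -1.28, and then at -0.72 and -0.29. With 1 library per group and method, the difference between methods has no replicate check. Library method and a possible difference between cultures cannot be told apart here.

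**Figure D3:**
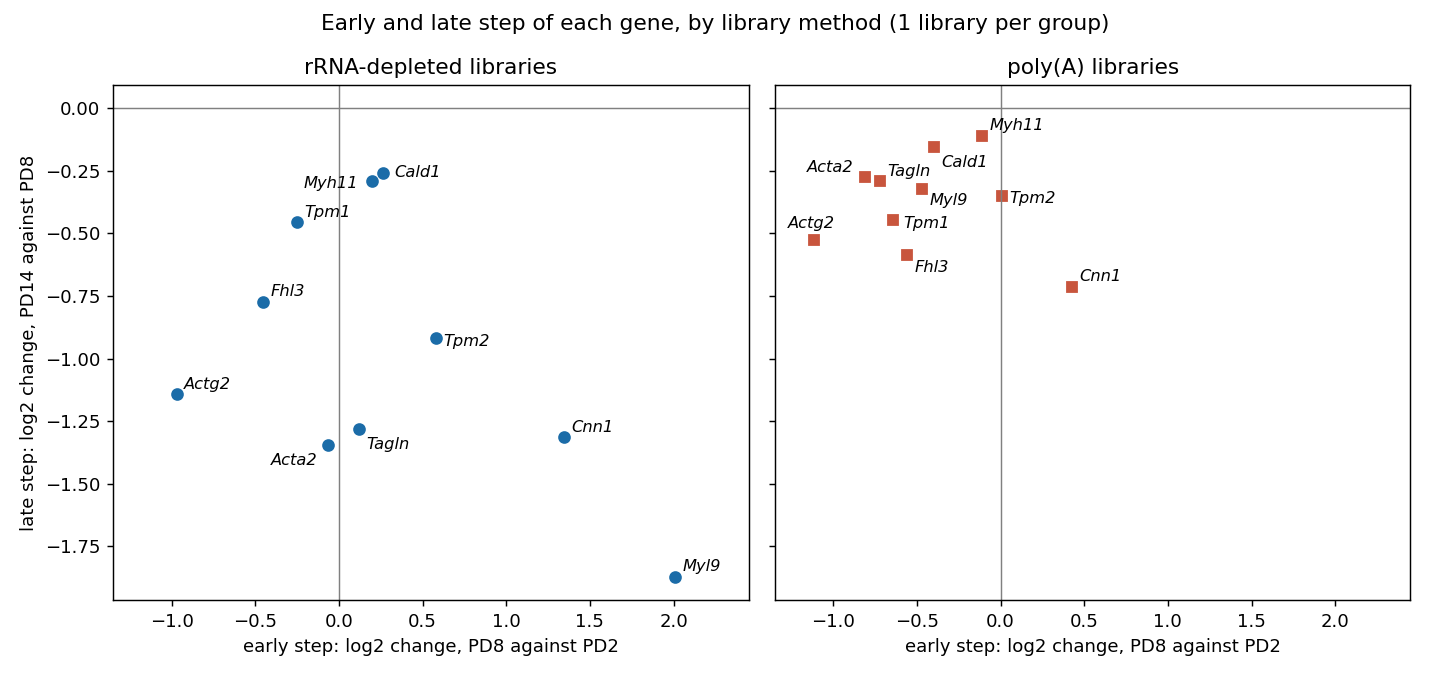
Log2 change of TPM + 1 in the early step (x axis) and in the late step (y axis) for each of the 10 genes, with the rRNA-depleted libraries on the left and the poly(A) libraries on the right; each point rests on 1 library per group. All points lie below 0 on the y axis. On the left 6 genes lie right of 0 on the x axis, Myl9 farthest at 2.01, and on the right only Cnn1 (0.43) and Tpm2 (0.01) do.

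Relatives of the members were used to give the share of each member in the summed TPM of its gene family. These are RNA values per gene, which include any isoforms other than those of smooth muscle. TPM are scaled for length, but a share of a family's summed TPM need not equal the share of its transcripts. The actin shares below differ between methods at the same passage. Acta2 made up 23.8%, 23.4% and 16.3% of the TPM of the 6 actin genes by order of passage with rRNA depletion, and 56.0%, 55.0% and 54.5% with poly(A) selection. The Acta2 share moved little with poly(A) selection. Actb and Actg1, the cytoplasmic actin genes, were lower at PD14 than at PD2 in both methods. Their TPM were 925 against 1421 and 1344 against 2920 with poly(A) selection. With rRNA depletion they were 2644 against 4533 and 1410 against 2123. Actg2 went from 1.56% to 0.646% and from 3.71% to 2.44% of actin TPM, so its share was lower at PD14 in both methods. Actb alone took 49.8% to 54.1% of actin TPM with rRNA depletion and 13.0% to 17.5% with poly(A) selection, so actin shares cannot be compared across methods.

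Tpm1 was the main tropomyosin gene, with 37.6% to 46.2% of the TPM of the 4 genes. The Tpm2 share was higher at PD8 than at PD2, at 20.2% against 12.4% and 17.1% against 12.1%, and was at 15.6% and 16.5% at PD14. Tagln was 80.3% to 88.1% of transgelin TPM in all libraries. Cnn1 was a small part of calponin TPM, at 4.27%, 9.18% and 4.91% in the rRNA-depleted and 6.02%, 10.4% and 7.39% with poly(A) selection, and Cnn2 and Cnn3 held the rest. Myh11 was 1.40% to 2.42% of heavy-chain TPM, most of which belonged to the non-muscle gene Myh9. Fhl3 went from 27.7% to 16.1% and from 20.9% to 16.7% of the FHL genes. These shares were not tested.

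**Figure D4:**
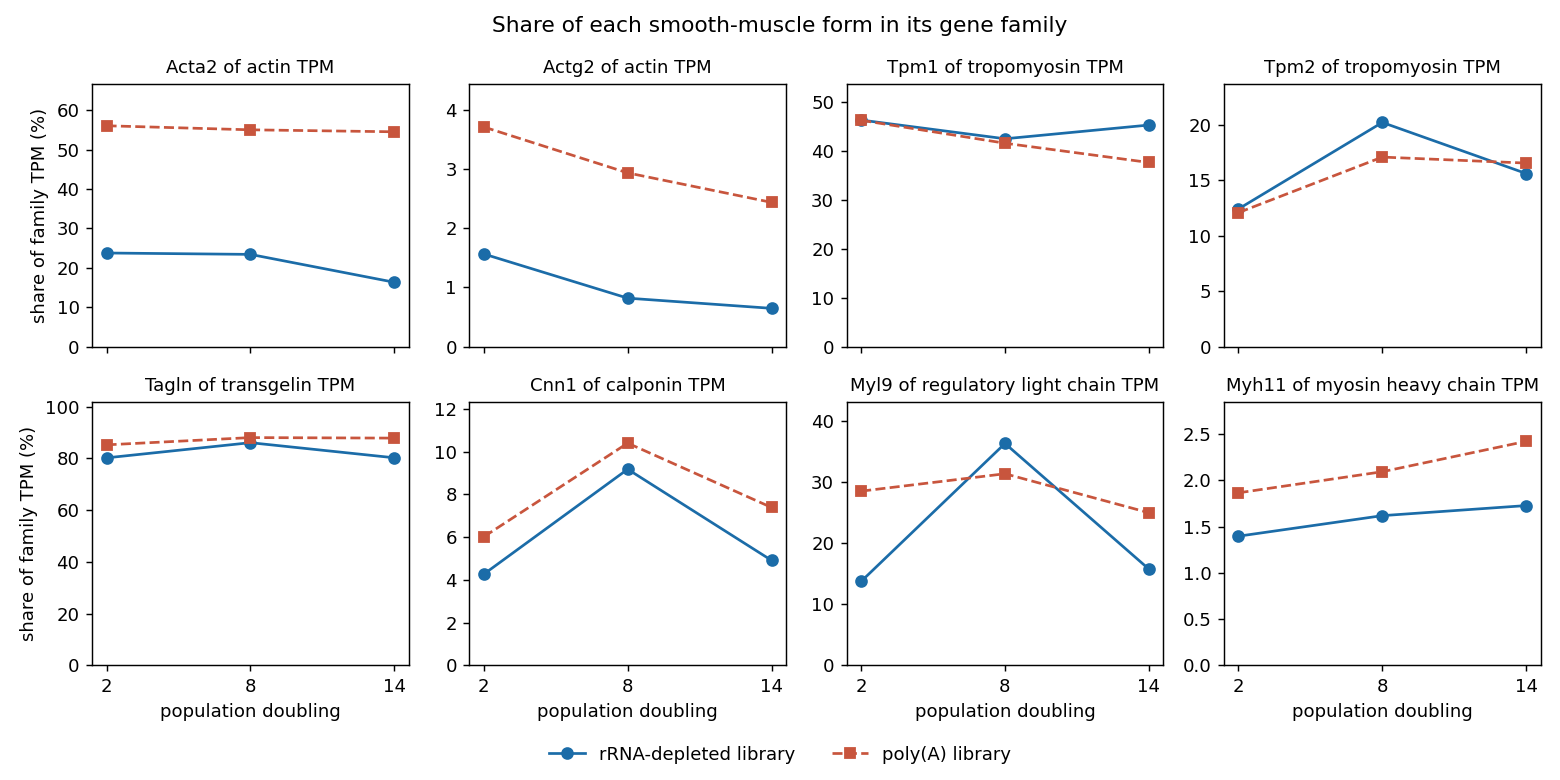
Share of member genes, all isoforms together, in the summed TPM of their gene families (y axis, percent, from 0, with its own scale in each panel). The x axis is population doubling, and each point is 1 library. The Acta2 share differs more between methods (16.3% to 23.8% against 54.5% to 56.0%) than between passages. The shares of Cnn1, Myl9, Tpm2 and Tagln are highest at PD8 in both methods.

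From PD2 to PD14 the median of the 16 tested non-muscle and striated relatives was -0.55. Of the 16, 3 fell and 0 rose, against 4.77% and 6.41% of all genes. They were the skeletal actin gene Acta1 (-1.79 ± 0.26, adjusted p = 0.0253), the broadly expressed transgelin gene Tagln2 (-1.29 ± 0.16, adjusted p = 0.0208) and the tropomyosin gene Tpm3 (-0.56 ± 0.12, adjusted p = 0.0454). The cardiac actin gene Actc1 was at -1.98 ± 0.46 without passing (adjusted p = 0.0540), and it reached 1 TPM only at PD2.

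Of 31 other smooth-muscle and stress-fibre genes, 3 fell and 0 rose, against 4.77% and 6.41% of all genes. Their median was -0.29. Des, the muscle intermediate filament desmin, fell by 3.98 ± 0.28 (adjusted p = 0.0134), Csrp1, a LIM protein of smooth muscle, by 1.17 ± 0.23 (adjusted p = 0.0395), and Pdlim1, a PDZ-LIM protein of stress fibres, by 0.75 ± 0.16 (adjusted p = 0.0459). The stress-fibre crosslinkers Actn1 and Actn4 were at -0.55 and -0.57, with adjusted p of 0.0750 and 0.0709, and were chosen after their values were seen.

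Of 23 contractile regulators, the formin gene Diaph3 fell by 1.34 ± 0.23 (adjusted p = 0.0330) and 0 rose. Of all genes 4.77% fell, close to 1 in 23, and 6.41% rose. The median of the 23 was -0.13. Cfl1, the actin-severing protein cofilin, had the next largest value, -0.67 ± 0.19 (adjusted p = 0.0783). The transcription factors of the pathway are named for their role, after their values were seen. Srf was at -0.45 ± 0.23 (adjusted p = 0.241), Mkl1, which encodes MRTF-A, at 0.50 ± 0.13 (adjusted p = 0.0722) and Mkl2, which encodes MRTF-B, at 0.19 ± 0.15 (adjusted p = 0.413). Myocd, the cofactor of differentiated smooth muscle, was at 0.315 to 3.67 TPM in the 6 libraries.

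Of 20 TGF-beta and matrix genes of myofibroblasts, 2 rose and 0 fell from PD2 to PD14, against 6.41% and 4.77% of all genes. Their median was 0.20 and 7 of 20 were negative, against 0.06 and 45.1% over all genes. In the late step 14 of 20 were negative, with a median of -0.04. Tgfb2, a TGF-beta ligand, rose by 0.996 ± 0.17 (adjusted p = 0.0332) and the collagen gene Col3a1 by 1.35 ± 0.19 (adjusted p = 0.0244). Skil, a repressor of SMAD signalling, was at -1.56 ± 0.37 (adjusted p = 0.0564). Ctgf, which responds to TGF-beta, was picked after its values were seen. Like Myl9, it was highest at PD8 with rRNA depletion and not with poly(A) selection. Its TPM were 438, 829 and 493 with rRNA depletion and 932, 614 and 995 with poly(A) selection. In the early and late steps 0 genes of these 4 lists passed in limma.

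Markers of other cells and of fibroblasts also differed between passages. Fibroblast markers summed to 16380, 23030 and 25240 TPM by passage with rRNA depletion and 11980, 15880 and 14880 TPM with poly(A) selection. From PD2 to PD14, 4 of 12 rose (Col3a1, Dcn, Lum and Twist1) while 0 fell. Of all genes 6.41% rose and 4.77% fell, the shares to set beside each marker count of this paragraph. Of the 18 skeletal and cardiac markers 8 passed the filter on low values. Acta1 and Tnnt3 fell from PD2 to PD14. Myh3 and Actc1 reached 1 TPM only at PD2 and so entered the test only through the group where they were high: Myh3 was at 1.34 and 1.66 TPM there and Actc1 at 1.48 and 5.69 TPM, against at most 0.0213 and 0.0687 TPM later. The 18 summed to 32.0, 15.5 and 12.3 TPM by order of passage with rRNA depletion and to 94.2, 37.0 and 21.2 TPM with poly(A) selection. Myf5 was at 0 in every library, Myod1 was at most 0.277 TPM, and Myog at most 1.36 TPM, in the PD2 poly(A) library. The part of muscle cells in the fall of Actg2, Fhl3 and Tpm1 was not tested. Of 16 markers of vascular smooth muscle and pericytes that are not among the 10 genes, 13 were tested. Of the 13, 1 rose (Notch3) and 2 fell (Des and Mcam). Some genes are in more than 1 list, and the calls of Des, Acta1 and Col3a1 here repeat those given above. The sum of all 16 lay between 179.9 and 288 TPM, at 211 and 288 in the PD2 and 179.9 and 263 in the PD14 libraries, and Pln and Higd1b were at 0 in every library. Macrophage markers summed to 165, 31.8 and 43.9 TPM by passage with rRNA depletion and to 430, 746 and 704 TPM with poly(A) selection, a different course in each method. The 10 endothelial markers summed to 13.8 to 29.4 TPM and the epithelial ones to 2.85 to 42.9 TPM, lowest at PD14 in both methods for the epithelial list. Of these lists 0 genes rose, and Kdr (endothelium) and Krt19 (epithelium) fell. Krt18 reached 1 TPM only at PD2 (6.53 and 5.97 TPM), through which alone it entered the test, and was at 0.143 to 0.831 TPM later. Tie1, Cldn5 and Esrp1 were at 0 in every library. Their part in the results was not tested.

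Likeness was measured as the root-mean-square difference of log2(TPM + 1), centred within each method, over the 6 libraries, among 9392 genes with a mean TPM of at least 10. For Acta2 the nearest other genes were Plaur, the urokinase receptor (0.07), Ifrd1 (0.08), Csrp1 (0.10), the glutathione-degrading enzyme gene Chac1 (0.15) and the checkpoint kinase gene Chek1 (0.15). Tagln, at 0.08, would have been second in that order. For Actg2 they included Fdps (0.10), Slc20a1 (0.12), Scd1 (0.16) and Chaf1b (0.17). Fdps encodes an enzyme of isoprenoid and sterol synthesis and Scd1 a fatty acid desaturase. Within the 10 genes, Pearson's r of the centred values over the 6 libraries was highest for Acta2 with Tagln (0.99) and Actg2 with Fhl3 (0.98), and lowest for Actg2 with Cnn1 (0.07). These correlations describe 6 libraries that share their groups and methods, and no test was made of them.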

How the data were processed

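The members and gene lists were chosen with earlier results of these data known. The authors deposited TPM per gene symbol for the 6 libraries. The submitters' processing notes name bcl2fastq, cutadapt 1.14, HISAT2 2.0.5, StringTie 1.3.1c and mm10, without the role of each tool, and the gene annotation is not given in the sources used here. Values were analysed across all genes as log2(TPM + 1) with limma 3.58.1 in R 4.3.3. Genes below 1 TPM in more than 4 of the 6 libraries were left out. Adding 1 understates changes of low genes. Group was the factor of interest and library method (the replicate number) a block, with a mean-variance trend, 2 residual degrees of freedom and a prior of 3.22. P-values were two-sided and Benjamini-Hochberg adjusted over 13332 genes at 0.05. The pairing of libraries comes from the labels, which give replicate numbers the same library method in every group. The fit was tested on simulated data. Named genes were all 10 members, listed genes that passed (at most 4 per list), and the 5 genes most like Acta2 and like Actg2. The 2 largest changes were named in each list except the cell markers. Some cell markers were named outside this rule, and other names are stated as later choices. Of the genes most like Actg2, 1 is not reported here. Positions are from GENCODE M21. Alternatives were the pseudocount, the filter, scaling, quantile normalization, the trend, the block and leaving out each library.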

Additional observations from a re-analysis of the deposited data

Results flagged for a closer look

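In 7 cases a change had opposite signs with rRNA depletion and with poly(A) selection. The difference between methods rests on 1 library per group and method and was not tested. It cannot be told apart from a difference between replicates. From PD2 to PD8, Myl9 was at 2.01 with rRNA depletion and -0.47 with poly(A) selection (log2, a difference of 2.48). Over the same step Tagln was at 0.12 and -0.72 (0.84), Cald1 at 0.27 and -0.40 (0.66) and Myh11 at 0.20 and -0.11 (0.31). From PD2 to PD14, Myl9 was at 0.14 and -0.79 (0.93), Cald1 at 0.01 and -0.55 (0.56) and Cnn1 at 0.03 and -0.28 (0.32). No member had opposite signs in the step from PD8 to PD14.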

How the results depend on the processing

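The count of members called from PD2 to PD14 was 3 and lay between 2 and 4 under the alternatives that kept all 6 libraries, except that it was 0 with no replicate block. Leaving out 1 library gave 0 to 4. Actg2 and Fhl3 each passed in 10 of 15 alternatives and Tpm1 in 6; their changes ranged from -2.15 to -1.61, -1.26 to -1.09 and -1.09 to -0.70. In the early step, the late step and the difference of the steps, 0 members passed under any alternative in limma. Over all genes, the PD14 against PD2 count of 1490 was 404 without the filter, 938 without the trend, 0 with no replicate block, and 0 to 1793 without 1 library. The PD8 against PD2 count of 3 was 21 at a pseudocount of 0.1, 0 at a pseudocount of 5, without the filter, without the trend, with no replicate block and under quantile normalization, and 0 to 626 without 1 library. The PD14 against PD8 count was 0 to 1 without 1 library. The causes were not tested. Where 1 library was left out, the remaining library of its group is assumed to vary like the others. Of the values that changed sign under an alternative, 0 were called. With 2 libraries per group and unknown depth, counting error cannot be given.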
